A study of Rattus norvegicus with 8 samples.

Results

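The cytosolic ribosomal protein genes were described in rat liver after hydrogen water drinking. Members were the genes whose probe set carried a single gene symbol of the form Rpl or Rps followed by a digit, or the symbol Rplp0, Rplp1, Rplp2 or Rpsa, without the Rps6k kinases. A probe set is the group of short probes on the array that reads 1 transcript, and for each gene the probe set of highest mean over the 8 arrays was taken. This gave 50 genes of the 14217 with a single symbol, 34 of the large (60S) and 16 of the small (40S) ribosomal subunit. Of the 50, 42 were core ribosomal proteins, 6 were paralogues (Rpl26l1, Rpl39l1, Rpl3l, Rpl7l1, Rps27l and Rps4y2) and 2 were annotated pseudogenes (Rpl37-ps2 and Rps4x-ps1). The symbols Rplp1 and Rplp2 had no probe set of their own under this rule.

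Total RNA from whole liver of male rats of the outbred Sprague-Dawley strain was read on Affymetrix oligonucleotide arrays. The hydrogen water group drank water containing 0.7 mM dissolved hydrogen for 4 weeks, which the sample titles call hydrogen-saturated water. The control group drank sterilized distilled water over the same 4 weeks. Both groups arrived at 4 weeks of age, ate the same commercial MF diet, were 8 weeks old by the labels and were anaesthetized with diethyl ether before the liver was taken. The study kept 8 animals per group, and 4 hydrogen water and 4 control arrays were analysed. Nothing in the labels ties an array to an animal or tells whether livers were pooled. The p-values therefore reflect array-to-array spread only, and the number of arrays limits the precision.

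Ribosomal proteins wrap and stabilise the ribosomal RNA of the 2 subunits, the small one reading the messenger RNA and the large one joining amino acids. They are made in near-equal amounts, and liver, which secretes most plasma proteins, holds them at high levels. Many of their messenger RNAs begin with a C followed by an unbroken run of pyrimidines, the 5′ terminal oligopyrimidine or TOP tract, through which mTORC1 signalling adjusts their translation and stability.

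The start of such a messenger RNA can be seen in the RefSeq sequence around the annotated start of each gene, build GRCr8. Each window below holds 10 bases before the start and 20 from it, on the coding strand and 5′ to 3′, with a tract at the start in capitals. A tract is read from the annotated start onward, as a C there followed without a break by at least 4 further pyrimidines. Pyrimidines directly before the start, as in Rpl34 and Rps15, were not counted. The first 5 are shown because they carry a tract and lie among the members with the largest positive differences or, for Rplp0, hold the ribosomal stalk. Rpl7a, Rps6 and Rps15a, also among the largest positive differences, hold no tract at the start and are not shown. The windows were thus picked on tract and difference together and cannot show a link between them. Rpl37a lies at chr9:81748081-81748110 on the plus strand, Rps15 at chr7:10068096-10068125 on the minus strand, Rpl34 at chr2:221962264-221962293 on the minus strand, Rpl39 at chrX:121195877-121195906 on the minus strand and Rplp0 at chr12:46718371-46718400 on the minus strand. The last 3 hold no such tract, the pyrimidine run at the start of Rpl3 beginning with T, and belong to the members with the largest negative differences and to a paralogue with a positive one. Rps4y2 does hold a tract within 10 bases of its start. Rpl3 lies at chr7:113507971-113508000 on the minus strand, Rps4y2 at chr4:183000903-183000932 on the plus strand and Rps27l at chr8:76443648-76443677 on the plus strand.
Rpl37a: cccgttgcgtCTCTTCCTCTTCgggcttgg
Rps15: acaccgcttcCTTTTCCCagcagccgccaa
Rpl34: tccttttcctCTTCCggggacggtgcttag
Rpl39: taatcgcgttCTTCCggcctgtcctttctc
Rplp0: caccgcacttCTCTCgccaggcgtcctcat
Rpl3: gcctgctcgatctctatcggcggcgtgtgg
Rps4y2: cagctctcctcactcgcttgtgctctggga
Rps27l: ttcatttgtcattatttgtggtgtccagag

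A start window was found for 43 of the 50 members, and Rpl23a, Rpl27, Rpl30, Rpl37-ps2, Rpl7, Rps29 and Rps4x-ps1 had none. A tract of C and at least 4 further pyrimidines stood exactly at the annotated start in 12 of the 43 windows (27.9%), against 722 of 27457 genes with a window (2.63%) and 2.44% of protein-coding genes. Those 12 genes were Rpl14, Rpl19, Rpl22, Rpl28, Rpl34, Rpl35, Rpl35a, Rpl37a, Rpl39, Rplp0, Rps15 and Rps3a, all core members. Within 10 bases of the start, where an annotation may be off by a few bases, a tract was found in 29 of 43 (67.4%), against 28.8% of all genes. CCGGAAG, the core letters bound by ETS factors, stood on either strand of the 300-base window in 10 of 43 (23.3%), against 9.22% of all genes. TATAAA stood in 6 of 43 (14%, against 14.3%) and CACGTG, the E-box bound by Myc, in 3 of 43 (6.98%, against 6.65%). These matches describe the letters in the window and say nothing about binding in these livers.

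The deposited signals were not on a common scale. Their 2% trimmed mean was 91.5 ± 10.4 on hydrogen water arrays and 115 ± 18.7 on control arrays (SD, n = 4 each; exact two-sided permutation test, p = 0.114), so the arrays were quantile-normalized before the comparison. The log2 signal ratio between the 3′ and the 5′ Gapdh probe sets, which follows RNA integrity, was 0.38 ± 0.08 on hydrogen water arrays and 0.22 ± 0.10 on control arrays (SD, n = 4 each; exact two-sided permutation test, p = 0.0571). Correlations between arrays ran from 0.944 to 0.958, and no pair of arrays held identical values. The labelled tissue matched its markers, since 7 of 8 hepatocyte genes passed the filter on low signal and all 7 lay at or above percentile 99.8 of mean signal. No tested marker of macrophages, endothelium, stellate cells, lymphocytes, erythroid cells or bile duct passed the limma test. Only 1 of 7 lymphocyte, 2 of 4 erythroid and 2 of 5 bile duct markers were tested, so these cell types were barely covered. Of the tested markers, 2 of 4 endothelial and 1 of 7 macrophage markers had an unadjusted p under 0.05, against 12.5% of all tested probe sets.

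No ribosomal protein gene changed past the test. Of the 50 members, 44 passed the filter on mean signal, which kept the brighter 50% of probe sets, and 0 were higher and 0 lower with hydrogen water at an adjusted p of 0.05 (limma, Benjamini-Hochberg over 15521 probe sets, lowest adjusted p = 0.144). Over all tested probe sets 0.825% passed, 0.445% higher and 0.38% lower, so a list of 44 would be expected to hold few calls at the background share. Unadjusted p-values under 0.05 were found for 2 of 44 members, Rpl39 and Rps4y2, against 12.5% of all tested probe sets. The hydrogen water and control arrays overlapped at every one of the 44, against 7.48% of all tested probe sets without overlap. Both member shares lie below the background shares, and these differences were not tested. In whole liver, fewer cells of a type and less RNA per cell cannot be told apart.

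**Figure D1:**
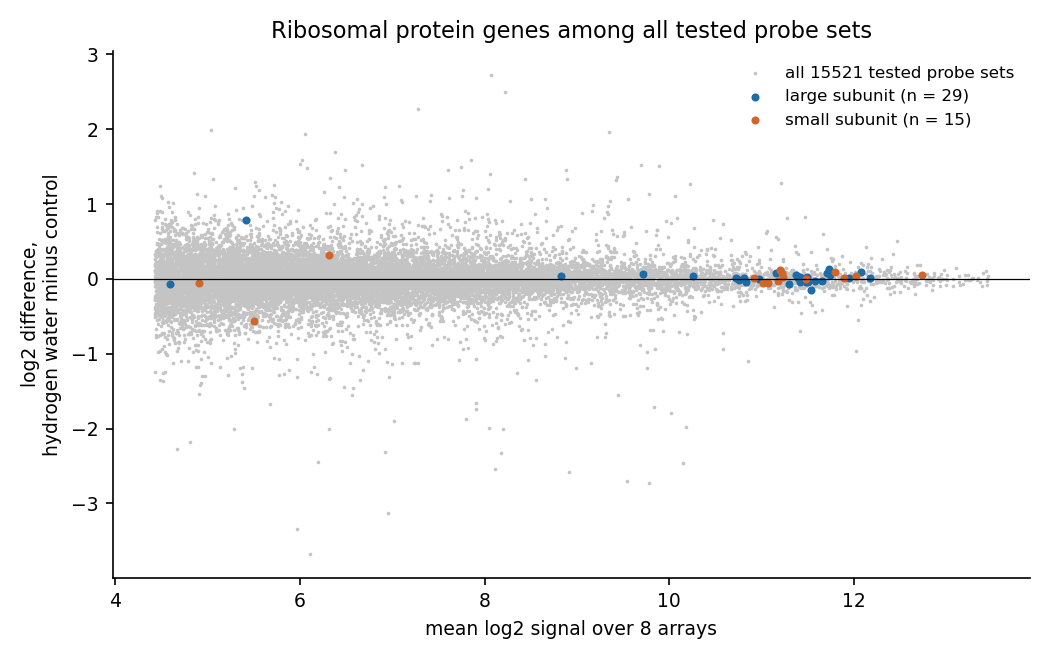
Difference in log2 signal, hydrogen water minus control (vertical axis), against mean log2 signal over the 8 arrays (horizontal axis) for all 15521 tested probe sets in grey, 29 large subunit genes in blue and 15 small subunit genes in orange. The bright members lie close to the line at 0 on the right, and Rpl39 (0.79) and Rps4y2 (-0.56) stand off it at low signal.

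The members fell into a bright and a dim set. With the cut set at a mean log2 signal of 8 after the values were seen, 39 members were bright, 38 core members and the paralogue Rpl7l1, and 5 dim members were tested. The 38 bright core members lay at or above percentile 95.7 of all mean signals, a rank that depends on the probes as well as on the transcripts. Their differences ran from -0.14 at Rpl3 to 0.14 at Rpl37a on the log2 scale, 35 of 38 were within 0.1 of 0, and for 0 the unadjusted p of limma was under 0.05 (lowest adjusted p = 0.53). That count was 5 without normalization (Rpl3, Rpl4, Rpl6, Rps28 and Rpsa) and 5 with the Gapdh ratio as a covariate (Rpl4, Rpl12, Rps3, Rps9 and Rps28). Over all tested probe sets the share was 27.9% without normalization and 15.5% with the Gapdh ratio. Among the 38 the count was 2 with spike-in scaling (10.2% of all tested probe sets) and without control array 2 (10.9%). With trimmed mean scaling, without hydrogen water array 3 and without control array 4 it was 1, against 10.4% to 12.8% of all tested probe sets. In each of these settings 0 passed the adjusted test. Among 1328 probe sets as bright as the bright core members, 11.3% had an unadjusted p under 0.05, 6.55% had groups without overlap and 1.13% passed the adjusted test. Every 95% interval of the 38 lay between 0.789-fold and 1.25-fold, so each gene's interval leaves out any change beyond those bounds, on the quantile-normalized scale. The SD within groups had a median of 0.079 over the 38, against 0.117 over the probe sets as bright.

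**Figure D2:**
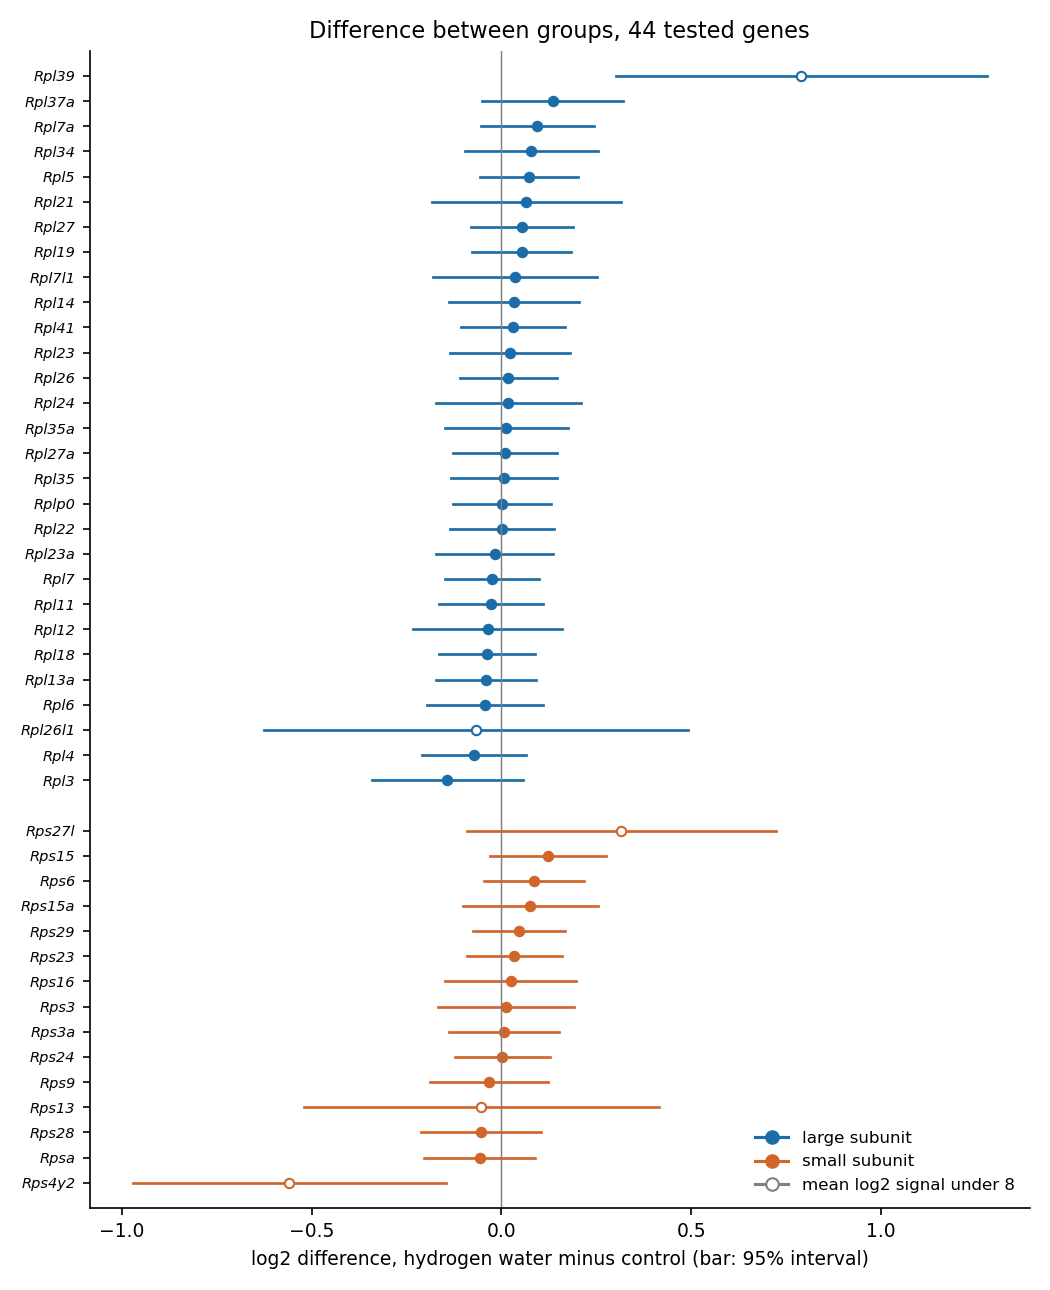
Difference in log2 signal, hydrogen water minus control, with its 95% interval for each of the 44 tested members, large subunit above in blue and small subunit below in orange. Open circles mark the 5 dim members, and among the filled circles no interval leaves out 0.

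The proteins at the heart of the large subunit were measured closely. Rpl3, which reaches towards the peptidyl transferase centre, had log2 signals of 11.53, 11.39, 11.56 and 11.36 on the hydrogen water arrays, against 11.47, 11.74, 11.77 and 11.43 on the control arrays. Control arrays 2 and 3 were the highest and the other 6 lay close together, so the groups overlapped. Rpl3 differed by -0.14 ± 0.09 (SE; 95% interval -0.34 to 0.06; limma, adjusted p = 0.591). Rpl4, which lines the peptide exit tunnel, had 11.32, 11.26, 11.19 and 11.29 with hydrogen water, against 11.25, 11.43, 11.31 and 11.35 in controls. It was highest on control array 2 and differed by -0.07 ± 0.06 (SE; 95% interval -0.21 to 0.06). Rpl6, another RNA-binding protein of the subunit, differed by -0.04 ± 0.07 (SE).

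At the upper end stood Rpl37a, a small zinc-binding protein of the large subunit. Its log2 signals were 11.87, 11.88, 11.74 and 11.72 with hydrogen water, against 11.46, 11.69, 11.66 and 11.86 in controls. Control array 4 lay among the hydrogen water arrays, while the other 3 control arrays lay below all of them. The difference was 0.14 ± 0.08 (SE; 95% interval -0.05 to 0.32; limma, adjusted p = 0.579). Rpl7a, an RNA-binding protein of the large subunit, had 12.14, 12.15, 12.07 and 12.16 with hydrogen water, against 11.90, 12.18, 11.95 and 12.10 in controls. The hydrogen water arrays sat within a narrow range that control arrays 2 and 4 reached or passed, and the difference was 0.09 ± 0.07 (SE; 95% interval -0.05 to 0.24). Rpl34, a protein whose start window above carries a short tract, differed by 0.08 ± 0.08 (SE; 95% interval -0.10 to 0.25).

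Rpl5 and Rpl11 form a particle with the 5S ribosomal RNA and, when ribosome assembly stalls, bind Mdm2, the ligase that degrades p53. Rpl5 had log2 signals of 11.73, 11.77, 11.70 and 11.77 with hydrogen water, against 11.66, 11.77, 11.57 and 11.68 in controls. Control array 2 equalled the highest hydrogen water arrays and the other control arrays lay lower. Rpl11 had 11.56, 11.54, 11.59 and 11.59 with hydrogen water, against 11.52, 11.52, 11.73 and 11.61 in controls. Control array 3 was the highest of the 8 and the rest lay within a narrow band. The differences were 0.07 ± 0.06 for Rpl5 and -0.03 ± 0.06 for Rpl11 (SE), and neither passed in limma (adjusted p = 0.695 and adjusted p = 0.919).

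Rplp0, the scaffold of the stalk that recruits elongation factors, is often used as a reference gene. It had log2 signals of 11.45, 11.43, 11.41 and 11.39 with hydrogen water, against 11.37, 11.53, 11.39 and 11.38 in controls. Control array 2 stood above the other 7, which lay within a range of less than 0.1. The difference was 0.0013 ± 0.06 (SE; 95% interval -0.13 to 0.13, or 0.915- to 1.09-fold; limma, adjusted p = 0.997). Its sign cannot be read at this precision, and the difference was -0.25 without normalization and 0.13 with spike-in scaling. The medians of all tested probe sets in those settings were -0.33 and 0.05.

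The other bright core members of the large subunit had differences between -0.04 and 0.07. Rpl7, Rpl12, Rpl13a, Rpl18 and Rpl23a were negative, with Rpl13a, known in human cells for a role outside the ribosome in restraining inflammatory transcripts, at -0.04 ± 0.06 (SE). Rpl14, Rpl19, Rpl21, Rpl22, Rpl23, Rpl24, Rpl26, Rpl27, Rpl27a, Rpl35, Rpl35a and Rpl41 were positive. Rpl21 had the widest interval of the bright core genes, -0.18 to 0.32 around a difference of 0.07. Rpl26, which sits at the tunnel exit, differed by 0.02 ± 0.06 (SE), and Rpl41, among the shortest of all proteins, by 0.03 ± 0.06 (SE).

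In the small subunit the largest positive difference among bright genes was that of Rps15, a protein of the subunit's head. Its log2 signals were 11.28, 11.32, 11.13 and 11.33 with hydrogen water, against 11.05, 11.23, 11.11 and 11.18 in controls. Hydrogen water array 3 lay among the control arrays and the other 3 lay above all of them. The difference was 0.12 ± 0.07 (SE; 95% interval -0.03 to 0.28; limma, adjusted p = 0.53), with the smallest unadjusted p of the bright members (0.105).

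Rps6 is the protein that S6 kinase phosphorylates downstream of mTORC1. It had 11.81, 11.86, 11.84 and 11.86 with hydrogen water, against 11.70, 11.89, 11.68 and 11.75 in controls. The highest array was control array 2 and the lowest 3 were the other controls. Rps6 differed by 0.09 ± 0.06 (SE; 95% interval -0.05 to 0.22; limma, adjusted p = 0.633). Rps15a differed by 0.08 ± 0.08 (SE; 95% interval -0.10 to 0.26).

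Rpsa, also known as the laminin receptor, differed by -0.06 ± 0.07 and Rps28 by -0.05 ± 0.07 (SE). Rps29, a small zinc-binding protein, had log2 signals of 12.74, 12.79, 12.76 and 12.77 with hydrogen water, against 12.62, 12.84, 12.68 and 12.74 in controls. The 4 hydrogen water arrays lay inside the span of the controls, and the difference was 0.05 ± 0.05 (SE; 95% interval -0.07 to 0.17). The others, Rps3, Rps3a, Rps9, Rps16, Rps23 and Rps24, differed by -0.03 to 0.03.

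The large and the small subunit had close medians in the normalized arrays, and the gap between them was not tested. The median difference was 0.013 over 29 tested large subunit genes and 0.012 over 15 tested small subunit genes, a gap of 0.00049 between the medians. The gap was 0.07 with array brightness and 0.05 with the Gapdh ratio as a covariate, and -0.03 without control array 2. The SD of the gap between arrays within groups was 0.03. Positive differences were found in 19 of the 29 and 10 of the 15. Over all 44 the median was 0.013, against -0.0011 over all tested probe sets, with 29 positive and 15 negative. The number of positive members was 1 of 44 without normalization, 42 with spike-in scaling, 16 with array brightness and 9 with the Gapdh ratio as a covariate. Above the median of all tested probe sets lay 29 in the normalized arrays, 38 without normalization and 38 with spike-in scaling. With array brightness as a covariate that number was 16, and with the Gapdh ratio 11. Among bright core genes the medians were 0.011 for 26 large subunit genes and 0.018 for 12 small subunit genes. The sign of the median over the 44 depended on the scaling and the arrays: it was -0.26 without normalization, where the median of all tested probe sets was -0.33, and -0.06 with the Gapdh ratio and -0.02 with array brightness as a covariate. It was -0.0072 without hydrogen water array 2 and -0.0076 without control array 1. Taken relative to the median of all tested probe sets, it was 0.01 in the normalized arrays, 0.07 without normalization, 0.08 after median, trimmed mean or spike-in scaling, -0.02 with array brightness as a covariate and -0.05 with the Gapdh ratio. The signs of single bright genes turned too. Rpl37a differed by -0.13 and Rps15 by -0.15 without normalization, both above the median of -0.33 over all tested probe sets. Rpl4, Rps28 and Rpsa differed by 0.04 to 0.05 with spike-in scaling, where that median was 0.05.

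On single arrays the members shifted together more than the groups differed. Each gene was centred on its own mean over the 8 arrays, and the median of the 44 centred values was 0.025, 0.048, -0.05 and 0.0086 on hydrogen water arrays 1 to 4, against -0.06, 0.09, -0.06 and 0.02 on control arrays 1 to 4. Control array 2 was the highest and control array 1 the lowest, so the span of the controls enclosed the hydrogen water arrays. Of the 38 bright core genes, 14 had their highest value on control array 2 and 16 their lowest on control array 1, while 8 were highest on hydrogen water array 2 and 8 lowest on hydrogen water array 3. The SD over arrays was 0.04 with hydrogen water and 0.07 in controls (n = 4 each), both above the difference between the group means of 0.0097. The large minus small gap per array was -0.02, 0.01, 0.0048 and 0.0025 with hydrogen water, against 0.04, -0.05, 0.03 and -0.02 in controls, with both signs in each group.

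**Figure D3:**
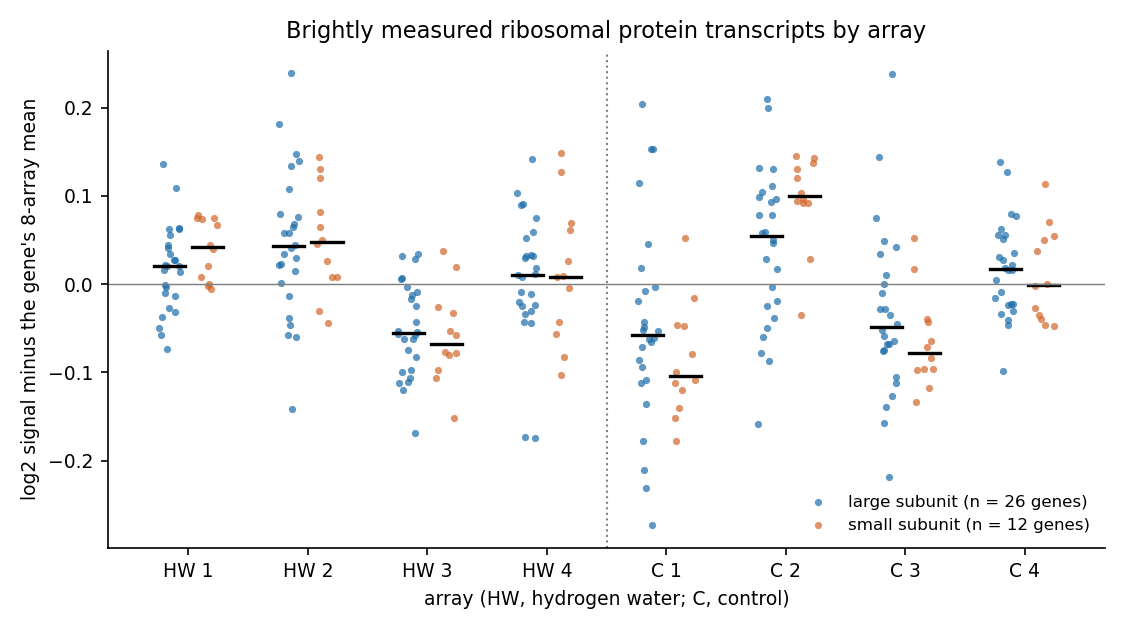
Log2 signal minus the gene's mean over the 8 arrays (vertical axis) for 26 large subunit (blue) and 12 small subunit (orange) bright core genes on each array, hydrogen water (HW) at left and control (C) at right, with black bars at the medians. Blue and orange shift up and down together from array to array, most on control arrays 1 and 2.

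Before normalization the same genes carried between 1.84% and 2.07% of the array signal. The 38 bright core genes held 2.05%, 2.04%, 1.97% and 2.02% of all deposited signal on hydrogen water arrays 1 to 4, against 1.84%, 2.07%, 1.94% and 1.99% on control arrays 1 to 4. The hydrogen water arrays lay inside the range of the controls. Their median deposited signal was 2240, 2569, 2263 and 2740 with hydrogen water, against 3094, 2590, 3364 and 2774 in controls. The group mean of this median was 2453 with hydrogen water and 2955 in controls. That of the trimmed mean of all signals was 91.5 and 115. Hydrogen water array 4 was above control array 2 in both, with trimmed means of 103 and 94.5. A link between the 2 measures was not tested.

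The dim members spread more widely, with a median SD within groups of 0.29. Rpl39, a very short protein of the exit tunnel, had log2 signals of 5.89, 5.98, 5.96 and 5.39 with hydrogen water, against 5.04, 5.54, 4.59 and 4.89 in controls. Hydrogen water array 4 lay below control array 2, and the other 3 hydrogen water arrays lay above all controls. The difference was 0.79 ± 0.22 (SE; 95% interval 0.30 to 1.28), or 1.73-fold, and it did not pass (limma, unadjusted p = 0.00454, adjusted p = 0.144). It stayed positive in all 23 other settings in which Rpl39 was tested, from 0.41 with array brightness as a covariate to 0.96 without control array 2, and it was 0.47 without normalization and 0.49 with the Gapdh ratio as a covariate. Its adjusted p in those settings ran from 0.1 to 0.658.

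Rps4y2, a copy of the Rps4 gene that lies on chromosome 4 in GRCr8, had 4.88, 5.04, 5.65 and 5.32 with hydrogen water, against 5.63, 5.97, 5.66 and 5.87 in controls. Only hydrogen water array 3 reached the controls. The difference was -0.56 ± 0.19 (SE; 95% interval -0.97 to -0.15), or 0.679-fold, and it did not pass (limma, unadjusted p = 0.0125, adjusted p = 0.228). Without normalization it was -0.88 and passed (limma, adjusted p = 0.0378), in a fit where most probe sets were lower with hydrogen water. In the other 22 settings tried, all negative, it did not pass.

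Rps27l, a paralogue of Rps27 that p53 induces in human cells, had 6.83, 6.57, 6.28 and 6.19 with hydrogen water, against 6.37, 5.83, 5.97 and 6.43 in controls. Hydrogen water arrays 1 and 2 were the highest and the others mixed with the controls. The difference was 0.32 ± 0.19 (SE; 95% interval -0.09 to 0.72; limma, adjusted p = 0.545). Rps13 differed by -0.05 ± 0.21 and the paralogue Rpl26l1 by -0.07 ± 0.25 (SE). Rpl26l1 was lowest on hydrogen water array 1, at 3.87, against 4.48 to 4.80 in controls. The remaining tested paralogue, the bright Rpl7l1, had 8.94, 8.98, 8.78 and 8.70 with hydrogen water, against 8.65, 8.95, 8.85 and 8.80 in controls, with overlapping groups and a difference of 0.04 ± 0.10 (SE).

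**Figure D4:**
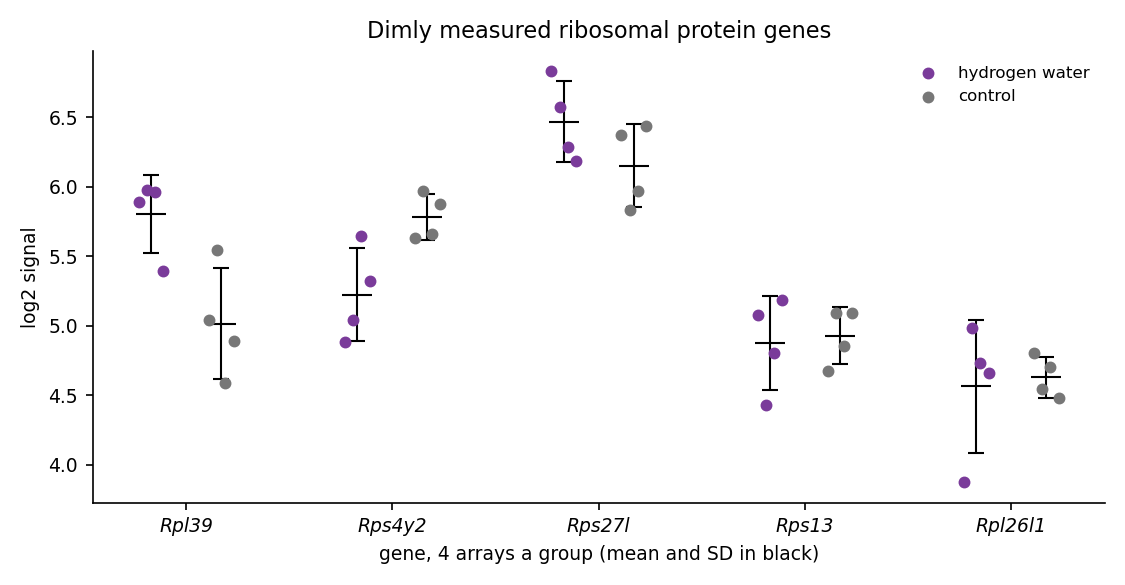
Log2 signal of the 5 dim tested members on each array, hydrogen water (purple) left of control (grey) for each gene, with the mean and SD of 4 arrays in black. Rpl39 is higher on 3 of 4 hydrogen water arrays than on any control array, Rps4y2 is lower on 3 of 4, and Rps27l, Rps13 and Rpl26l1 overlap more widely.

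A total of 6 members were too dim to test. Rpl3l, the muscle paralogue of Rpl3, had log2 signals of 1.72 to 3.05 with hydrogen water, against 1.90 to 3.76 in controls. Rpl39l1, a paralogue of Rpl39, had 1.88 to 3.88 with hydrogen water, against 1.87 to 2.35 in controls. The pseudogenes Rpl37-ps2 and Rps4x-ps1 spanned 1.76 to 4.09 and 1.28 to 3.01 with hydrogen water, against 3.25 to 4.19 and 1.28 to 2.14 in controls. These ranges overlap and sit where signal and background cannot be told apart in these data.

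The last 2 untested members, Rpl28 and Rpl30, and the dim Rps13 are core genes of every ribosome. The rule reached them through a dim probe set, at means of 2.60, 2.59 and 4.90, although each symbol also stands on a bright probe set shared with other symbols. Those shared probe sets averaged 11.25 for Rpl28, 10.76 and 10.95 for Rpl30 and 11.31 for Rps13. The probe set at 10.76 also lists Rps10, a protein of the small subunit, so its signal cannot be credited to Rpl30 alone. In the same order, the shared probe sets differed by -0.00042 ± 0.07, by 0.04 ± 0.08 and 0.05 ± 0.07, and by 0.0048 ± 0.07 (SE). Their limma adjusted p-values ran from 0.822 to 0.999. Rpl39 stands on no shared probe set, so its dim signal could not be set beside a bright one.

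In all, 36 probe sets listed several symbols with at least 1 ribosomal protein among them, and they fall outside the rule. They cover core proteins with many gene copies, such as Rps2, Rpl10 and Rplp1, and a signal there cannot be divided among the copies. Of the 35 tested, 0 passed in limma, against 0.825% of all tested probe sets, and the unadjusted p was under 0.05 for 1, against 12.5%. That probe set lists Rps2 and 3 pseudogene copies and differed by 0.16 ± 0.06 (SE; limma, adjusted p = 0.325), while another probe set of Rps2 differed by -0.10 ± 0.07. The median of the 35 was 0.0024, with a range of -0.21 at the Rpl22l1 copies to 0.16. Groups without overlap were found for 1 of 35, against 7.48% of all tested probe sets. It lists Rps4x and a pseudogene and differed by 0.04. The stalk protein Rplp1, read with its copies, differed by 6.7e-05 ± 0.07 (SE). These probe sets were singled out after their values were seen.

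A further 7 probe sets with a single symbol read 6 of the members again, and 6 of them were tested. In limma 0 passed, and 0 had an unadjusted p under 0.05, against 0.825% and 12.5% of all tested probe sets. For Rpl7 the other probe set differed by 0.27 ± 0.15 (SE, adjusted p = 0.529), against -0.03 ± 0.06 at the chosen one. For Rpsa the other 2 differed by 0.18 ± 0.11 and -0.04 ± 0.07 (SE).

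Members with and without a tract at the start were set side by side. The 11 tested members with a tract had differences from 0.00081 to 0.79, all positive, with a median of 0.03. The 29 tested members with a window and no tract there ran from -0.56 to 0.32, with 16 positive and a median of 0.0090. Members of that second set, such as Rps4y2, Rpl4, Rpl12, Rps28, Rpl23 and Rps6, hold a tract within 10 bases of the start. Such a tract near the start was found in 67.4% of all member windows, against 27.9% exactly at it. The split therefore rests on the exact annotated position. Only the interval of Rpl39 leaves out 0 among the 11, and genes on the same arrays are not independent, so the counts are descriptions. The count of positive members with a tract was 1 of 11 without normalization and with the Gapdh ratio as a covariate, 3 of 11 with array brightness as a covariate, and 6 of 11 without hydrogen water array 2 or without control array 3. Without normalization the median of all tested probe sets was -0.33. The gap between the medians with and without a tract ran from 0.0025 to 0.07 over the settings tried.

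Lists of genes for the machinery around the ribosome were counted in the same fit. There 0.825% of all tested probe sets passed and 12.5% had an unadjusted p under 0.05. Rack1, a further protein of the small subunit that bears no Rp symbol, differed by 0.0056 ± 0.07 (SE; limma, adjusted p = 0.987). Of 73 mitochondrial ribosomal proteins, which belong to the separate ribosome of that organelle, limma passed 0, the unadjusted p was under 0.05 for 2, and the median was 0.0079. Those were Mrpl46 (0.32 ± 0.13) and Mrps31 (0.35 ± 0.16, SE). Of 30 tested initiation factors 0 passed and 2 had an unadjusted p under 0.05, Eif4g3 (0.35 ± 0.09, adjusted p = 0.113) and the cap-binding Eif4e (0.18 ± 0.07, SE; adjusted p = 0.341), with a median of 0.0049. Of 14 tested elongation factors and other TOP transcripts 0 passed and 1 had an unadjusted p under 0.05, the histone chaperone Nap1l1, at 0.45 ± 0.11 (SE; adjusted p = 0.0983). Hnrnpa1 followed at 0.18 ± 0.09, and the list's median was 0.0096.

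Genes that build ribosomes had the largest median of these lists. Of 76 tested biogenesis and rRNA processing genes, 0 passed in limma, 52 were positive and the median was 0.09, against 7721 positive of 15521 tested probe sets. The count and the median are given for the quantile-normalized arrays only, and those of the ribosomal protein genes changed with the scaling. An unadjusted p under 0.05 was found for 7 of 76, all positive, a share below the 12.5% of all tested probe sets. Tsr1, a maturation factor of the small subunit, had log2 signals of 8.62, 8.44, 8.20 and 8.28 with hydrogen water, against 7.40, 8.10, 7.67 and 7.55 in controls, a difference of 0.70 ± 0.15 (SE) without overlap that did not pass (adjusted p = 0.0661). Bysl, which acts in the same pathway, differed by 0.55 ± 0.15 (SE; adjusted p = 0.123). Whether this median differs from that of the ribosomal proteins was not tested.

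Among regulators, 1 of 30 tested genes of mTORC1 and of ribosomal protein synthesis passed, against 0.825% of all tested probe sets. Myc, a transcription factor that activates ribosomal protein and biogenesis genes, had 6.48, 6.25, 5.40 and 4.95 with hydrogen water, against 8.34, 8.53, 7.87 and 7.56 in controls. It fell by 2.31 on the log2 scale (SE 0.32; limma, adjusted p = 0.0111), with no overlap between groups, beside bright ribosomal protein genes whose differences ran from -0.14 to 0.14. The values of Myc and of this list are given for the quantile-normalized arrays without a covariate only. In that fit 128 probe sets passed, against 12 with array brightness as a covariate. The list's median was 0.0067, with 5 of 30 unadjusted p-values under 0.05, against 12.5% of all tested probe sets. Of 7 tested genes of ribosome stress and p53, limma passed 0, and the unadjusted p was under 0.05 for the p53 target Ccng1 alone, at 0.51 ± 0.12 (SE; adjusted p = 0.0749), while Phlda3, another target, differed by -0.49 ± 0.27.

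**Figure D5:**
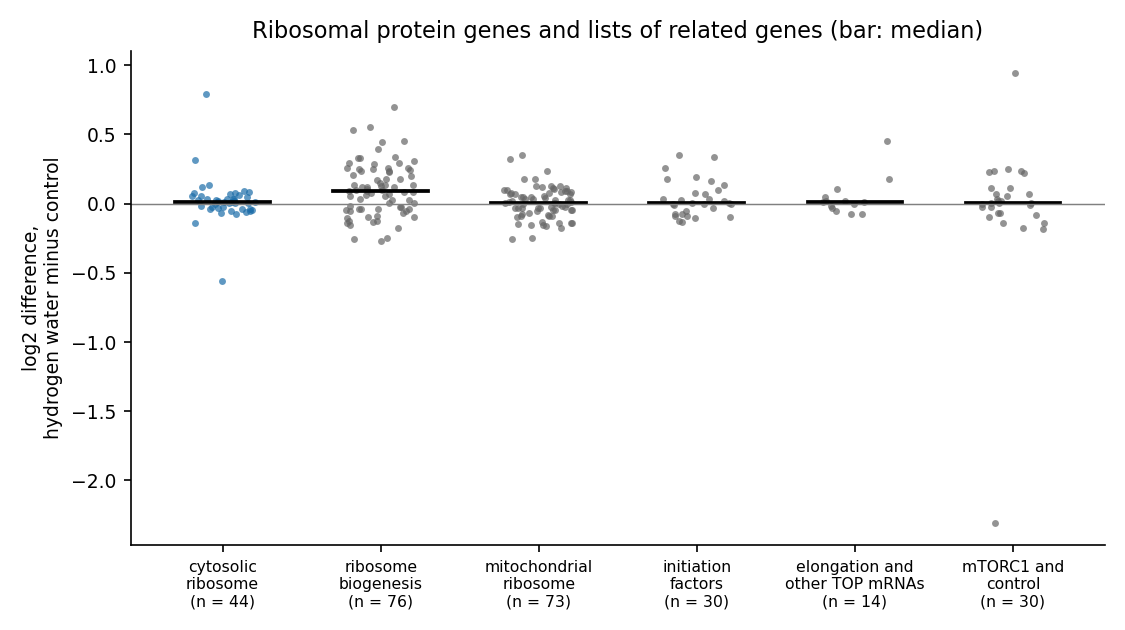
Difference in log2 signal, hydrogen water minus control (vertical axis), for the 44 tested cytosolic ribosomal protein genes (blue) and 5 lists of related genes (grey), with bars at the medians. Apart from Rpl39, Rps27l and Rps4y2 the blue points lie between -0.14 and 0.14, the biogenesis genes have a median of 0.09, and Myc stands at -2.31.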

How the data were processed

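The deposited values are intensities on a linear scale and, per the submitters' processing notes, the authors used MAS5. This algorithm subtracts background and combines the probes of a probe set into a signal value. The MAS5 version, the scaling target and detection calls were not given in the sources used here. Signals were quantile-normalized, a pseudocount of 2.048 (10% of the median) was added and log2 was taken, so differences of dim genes are understated and a shift of most transcripts would not be seen. Of 31099 probe sets, 57 controls were left out and the brighter 50% of the rest (15521) were tested with limma 3.58.1 (lmFit, eBayes with trend; two-sided, Benjamini-Hochberg) in R 4.3.3. The fit was tested on simulated data. Intervals are at 95% and not adjusted for the number of genes.

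Symbols came from the platform annotation. RefSeq (GRCr8) matched 48 members by gene ID and 2 by symbol, and gave the start windows. For genes with several annotated starts the first listed was used. Named are the members with the 8 largest differences each way, the 6 smallest p, paralogue pairs and the stalk, and of each related list those past the threshold or the 2 smallest p. Rpl5, Rpl11, Rps29 and the remaining members were described for their roles. The members, rules and lists were chosen with earlier results of these data known.

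Alternatives were other scalings, pseudocounts, filters and probe set choices, no trend, the replicate number as a block, array brightness or the Gapdh ratio as a covariate, and leaving out each array. The restriction to bright core members was added after seeing the data.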

Additional observations from a re-analysis of the deposited data

Results flagged for a closer look

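In 44 groups of 4 arrays, a hydrogen water and a control group for each named member, and in 8 groups of summary values, the array farthest from the others was checked against Dixon's 95% limit for 4 values. Chance gives such a gap in about 1 group in 20, and 4 were found. Rpl39 on hydrogen water array 4 had a log2 signal of 5.39, against 5.888 to 5.978 on the other 3 hydrogen water arrays. Rpl7a on hydrogen water array 3 had 12.07, against 12.14 to 12.16. Rplp0 on control array 2 had 11.53, against 11.37 to 11.39 on the other controls, and that array was also the highest for the ribosomal protein genes as a set. The untested paralogue Rpl39l1 on control array 4 had 2.348, against 1.87 to 1.893, at signals near background. Leaving out hydrogen water array 4 gave Rpl39 a difference of 0.93, and no member passed the limma test when any of these arrays was left out.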

How the results depend on the processing

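The count of members that were higher stayed at 0 in 17 other settings and when each of the 8 arrays was left out in turn, and the count that were lower was 1, Rps4y2, without normalization and 0 otherwise. Over all tested probe sets the number past the threshold was 128, against 505 without normalization, 239 with the Gapdh ratio and 12 with array brightness as a covariate, 64 without a trend and 55 to 197 with an array left out. Without normalization the medians were -0.258 over all members, -0.262 in the large and -0.249 in the small subunit, where all tested probe sets had -0.331. Scaling by 18 spike-in probe sets gave 0.132, 0.127 and 0.140. The Gapdh ratio as a covariate gave -0.0630, -0.0591 and -0.109, with 0.0503 for large minus small, and array brightness gave -0.0868 in the small subunit and 0.0723 for large minus small. The causes were not tested. With an array left out, the medians ran from -0.0076 to 0.0366 over all members, -0.0077 to 0.0315 in the large and -0.0196 to 0.0615 in the small subunit, and large minus small from -0.0301 (without control array 2) to 0.0171. The replicate block changed no member's call and no median (0.0126 over all members), with 181 probe sets past the threshold. Deviations of same-numbered arrays correlated at -0.10, 0.04, 0.19 and -0.0029. Among hydrogen water arrays number 3 alone correlated best with the control of its number. A pairing by number was not shown, and so few values cannot exclude it. Of the named members' values under other settings, 441 moved by less than 1 SD between arrays without a change of call, 47 moved further and 1 (Rps4y2) newly passed. With 4 arrays per group and no detection calls, dim members cannot be set apart from background.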
